A study of Mus musculus with 9 samples.

Results

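The cadherins and protocadherins are membrane proteins that hold cells together or let them recognise each other, and 56 genes named Cdh plus a number, or starting with Pcdh, were measured in spinal cord (21 cadherins and 35 protocadherins, of 18193 genes with a probe set of a single gene symbol). The rule used the gene's name and no value, and each was represented by the brightest of its probe sets over all arrays, out of 101 in all. RNA came from 3 mice of the GAD65-GFP genotype at postnatal day 6, which labels cells using the GAD65 promoter with a fluorescent protein (GAD65 makes the inhibitory transmitter GABA). Each animal gave an intermediate, a dorsal and a ventral piece of the cord, so that 9 Affymetrix arrays fell into 3 regions of 3. The genotype was the same in all regions, and no group lacked the reporter. The labels mention no sorting, and the values are treated as those of whole tissue, with neurons, glia, vessels and coverings together. The question the design poses for these genes is where along the dorsal to ventral axis each was more abundant.

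Classical cadherins join like to like through calcium-dependent outer domains and reach the actin cytoskeleton through catenins. Type I members such as N-cadherin adhere strongly and widely, whereas type II members are used in combinations that sort neurons into groups and match synaptic partners, as has been shown for motor pools in chick. The delta protocadherins are encoded by scattered genes and act in axon growth and synapse formation. The clustered protocadherins lie in tandem arrays, and a neuron uses a small set of them as an identity code for self-recognition. In mouse spinal cord the gamma cluster is known for the survival of interneurons.

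Values were read as log2 expression, a scale that the labels do not state. They ran from 2.15, the floor of the table, to 16.27, with array medians of 3.66 to 3.75. Within a region the arrays correlated at 0.998 to 0.999 across probe sets, and between regions at 0.982 to 0.995 (probe sets are not independent replicates). The regional labels were checked against markers. The summed level of 6 dorsal horn markers was 7.26 to 8.49 on intermediate arrays, 11.83 to 12.18 on dorsal arrays and 5.72 on each ventral array. The motor neuron markers measured, Isl1 and Prph among them, summed to 7.01 to 7.67 on intermediate, 4.95 to 5.06 on dorsal and 9.40 to 9.84 on ventral arrays. However, Chat, Slc5a7 and Slc18a3, which define cholinergic neurons, were at the floor on all arrays. Of 4 tested, only Isl1 and Prph were called lower in dorsal than in ventral pieces. Only Prph was called lower in intermediate than in ventral pieces, and only Isl1 higher in intermediate than in dorsal pieces.

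Of the 56 members, 13 were at the floor on all 9 arrays: Cdh17, Cdh18, Cdh23, Cdh26, Pcdh1, Pcdhb1, Pcdhb2, Pcdhb5, Pcdhb6, Pcdhb8, Pcdhb11, Pcdhb13 and Pcdhb18. A filter on dim probe sets left 46 members in the test, 3 of them at the floor throughout, and 40 members were above the floor on every array. Above the floor means by more than 0.01, so members near it, such as Cdh16 and Pcdhb19, are counted among the 40. Tests compared the regions within animals by limma on 13959 genes, with Benjamini-Hochberg adjustment over all of them and a call at 0.05. Between intermediate and dorsal pieces, 23 of the 46 were called, 13 higher and 10 lower in the intermediate piece, where 30.1% of all genes were called (15.9% higher and 14.2% lower). Between intermediate and ventral pieces, 28 were called, 23 higher and 5 lower in the intermediate piece, against 48.2% of all genes (23.4% higher and 24.9% lower). Between dorsal and ventral pieces, 29 were called, 18 higher and 11 lower in the dorsal piece, against 52.8% of all genes (24.5% higher and 28.2% lower). A moderated F test over the regions called 34 members, where it called 58.0% of all genes. Among the 40 members above the floor throughout, 22, 28 and 28 were called in these contrasts, where 32.4%, 52.0% and 56.7% of the 12832 genes above the floor throughout were called. The median log2 difference over the tested members was -0.01 for intermediate minus dorsal, 0.12 for intermediate minus ventral and 0.12 for dorsal minus ventral, against 0.00 for all genes in each. Over the 40 members above the floor throughout it was -0.01, 0.38 and 0.17, with no median over all such genes to set beside it. The contrasts share arrays, so their values are set side by side and are not independent of each other.

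**Figure D1:**
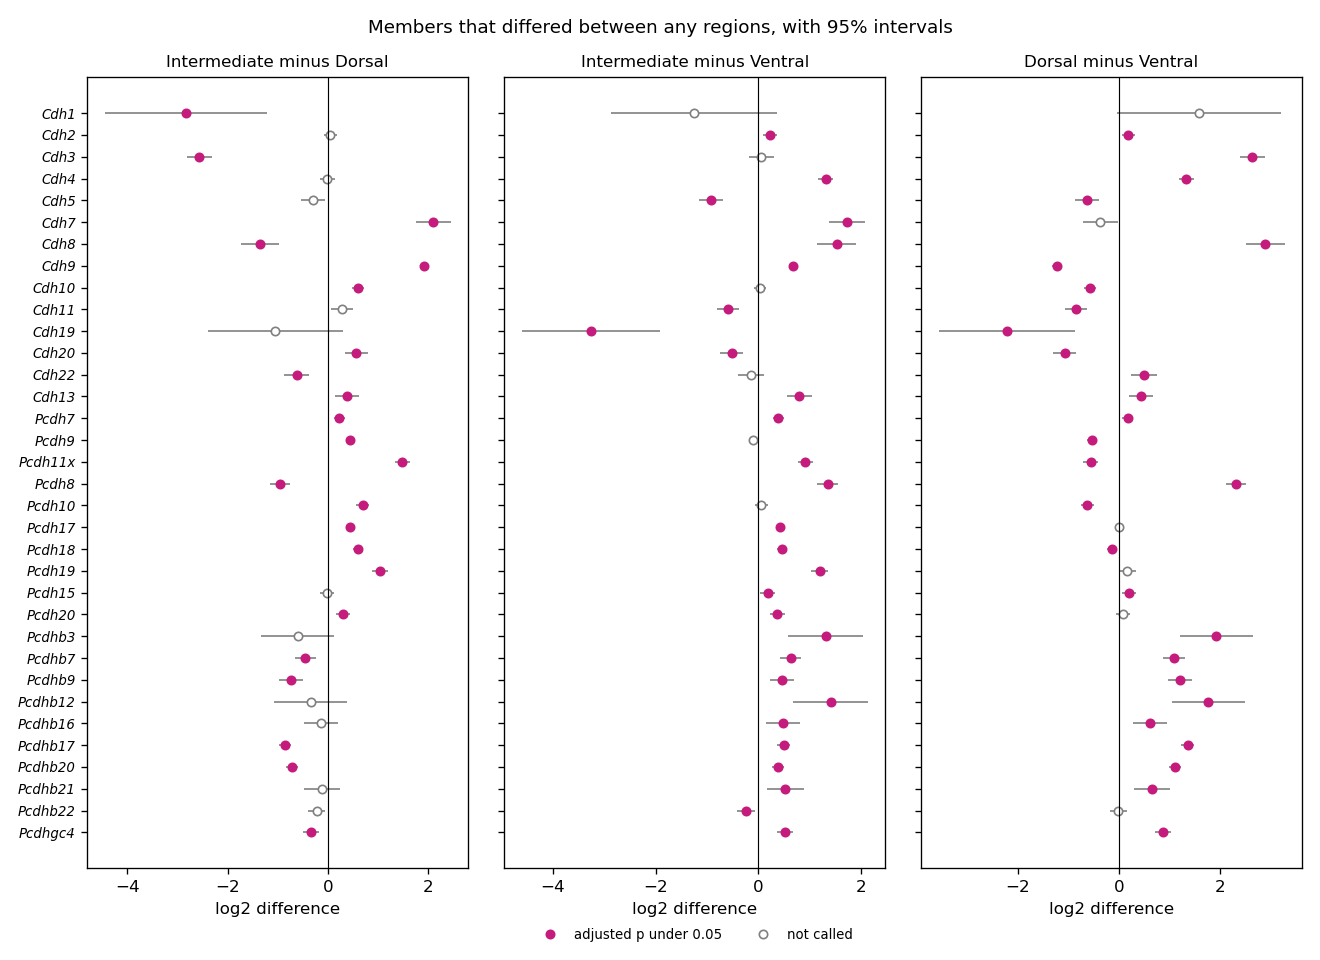
Log2 differences (x axes, which differ between panels) of the 34 members that differed between any regions by the F test, for intermediate minus dorsal, intermediate minus ventral and dorsal minus ventral pieces, in order of role, with filled points for differences called at an adjusted p under 0.05 and lines for 95% intervals. Cdh7, Cdh9 and Pcdh11x stand to the right in both intermediate contrasts, and Cdh8 and Pcdh8 stand to the left against dorsal pieces and to the right against ventral ones.

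The plot of differences by role shows how mixed the directions were within the cadherins, and that 8 beta protocadherins shared the same direction against ventral pieces. Neuron markers moved with the intermediate and dorsal excess over ventral pieces: all 6 were higher in intermediate than in ventral pieces and 5 of 6 were higher in dorsal than in ventral pieces. Their summed level was 15.77 to 15.88 on intermediate, 15.68 to 15.83 on dorsal and 14.90 to 14.93 on ventral arrays. Astrocyte and oligodendrocyte markers ran the other way, with 7 of 7 and 7 of 8 tested lower in intermediate than in ventral pieces and the same counts lower in dorsal than in ventral pieces. Astrocyte markers summed to 16.31 to 16.37 on intermediate, 16.04 to 16.20 on dorsal and 16.82 to 16.85 on ventral arrays, and oligodendrocyte markers to 16.63 to 16.83, 16.62 to 16.72 and 17.24 to 17.31 on the same. None of these markers was at the floor on all arrays, and their part in the results was not tested. In pieces of tissue, fewer cells of a type and less RNA per cell cannot be told apart.

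Calls also changed when an animal was left out, in fits with fewer arrays and less power for every gene. Without animal 1 or without animal 2 the count for intermediate minus dorsal was 15 in place of 23, and without animal 2 the count for dorsal minus ventral was 19 in place of 29. The 13 members called for intermediate minus dorsal whichever animal or array was left out were Cdh3, Cdh7, Cdh9, Cdh10, Pcdh8, Pcdh9, Pcdh10, Pcdh11x, Pcdh17, Pcdh18, Pcdh19, Pcdhb17 and Pcdhb20. For intermediate minus ventral 15 members were called throughout, and for dorsal minus ventral 16. Calls that were lost or gained in this way are named with each gene.

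Among the 5 type I cadherins, Cdh2 (N-cadherin, the main cadherin of neural tissue) changed by the least of the called members of its class. Its values were 13.57, 13.53 and 13.42 in intermediate pieces, 13.50, 13.40 and 13.48 in dorsal pieces and 13.27, 13.21 and 13.34 in ventral pieces. Intermediate and dorsal values overlapped, and both stood above all ventral values by a narrow margin. The difference was 0.23 ± 0.05 for intermediate minus ventral (limma, adjusted p = 0.0178) and 0.19 ± 0.05 for dorsal minus ventral (limma, adjusted p = 0.0338), and for intermediate minus dorsal it was 0.05 with a 95% interval of -0.09 to 0.18. Both calls were lost without animal 1 and without animal 2 (highest adjusted p = 0.172 and 0.215, both without animal 1), and in 4 and 6 of the 9 fits that left out 1 array. A second, dimmer probe set of Cdh2 gave -0.08 for dorsal minus ventral (limma, adjusted p = 0.0147), the opposite direction. It did not call intermediate minus ventral, at 0.03 (limma, adjusted p = 0.181). That probe set called intermediate minus dorsal, at 0.11 (limma, adjusted p = 0.0094).

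Cdh4 (R-cadherin, a close relative of N-cadherin) was low in the ventral piece. It read 10.18, 10.06 and 9.99 in intermediate pieces, 10.05, 10.21 and 10.01 in dorsal pieces and 8.81, 8.76 and 8.70 in ventral pieces. Intermediate and dorsal values overlapped, and every ventral value was more than 1 unit lower. This was a 2.49-fold difference between intermediate and ventral pieces (1.32 ± 0.06, limma, adjusted p = 0.000207) and a 2.52-fold difference between dorsal and ventral pieces (1.33 ± 0.06, limma, adjusted p = 9.72e-05), while intermediate minus dorsal was -0.01 with a 95% interval of -0.16 to 0.13. A second probe set gave 1.44 and 1.53 for the called contrasts.

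Cdh3 (P-cadherin, an epithelial and placental cadherin) was a dorsal gene at low levels. Its values were 2.34, 2.34 and 2.34 in intermediate pieces, 4.62, 5.07 and 5.03 in dorsal pieces and 2.15, 2.34 and 2.34 in ventral pieces, where 1 array was at the floor. The dorsal values stood apart from all others. The intermediate minus dorsal difference was -2.56 ± 0.09 (limma, adjusted p = 0.000312) and the dorsal minus ventral difference 2.63 ± 0.09 (limma, adjusted p = 6.62e-05), folds of 5.91 and 6.19. Identical intermediate values make the spread look smaller than it may be. The other probe set of Cdh3 was at the floor on all arrays.

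Cdh1 (E-cadherin, the epithelial cadherin) read 3.77 on each intermediate array, 8.42, 5.85 and 5.53 in dorsal pieces and 5.48, 4.94 and 4.65 in ventral pieces. The dorsal piece of animal 1 stood far above the other dorsal pieces, and all intermediate values lay below all dorsal ones. As for Cdh3, identical intermediate values make the spread look smaller than it may be. The difference was -2.83 ± 0.62 for intermediate minus dorsal, 7.11-fold lower (limma, adjusted p = 0.0279). This call was lost without animal 2, where its adjusted p was 0.139, without animal 3, and in 8 of the 9 fits that left out 1 array. The other contrasts were not called: -1.26 for intermediate minus ventral (limma, adjusted p = 0.17) and 1.57 for dorsal minus ventral (limma, adjusted p = 0.0928). Without animal 1 both were called, at -1.03 and 0.89 (adjusted p = 0.0209 and 0.0205), and the first also without the dorsal array of that animal (0.00975). Cdh15 (M-cadherin of muscle) read between 3.06 and 3.71 on all arrays and was not called, with an intermediate minus dorsal difference of -0.36 and a 95% interval of -0.73 to 0.02. Without animal 3 it was called, at -0.54 for intermediate minus dorsal and 0.58 for dorsal minus ventral (adjusted p = 0.0342 and 0.0125), and likewise without the dorsal array of animal 3 (0.00614 and 0.00184).

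**Figure D2:**
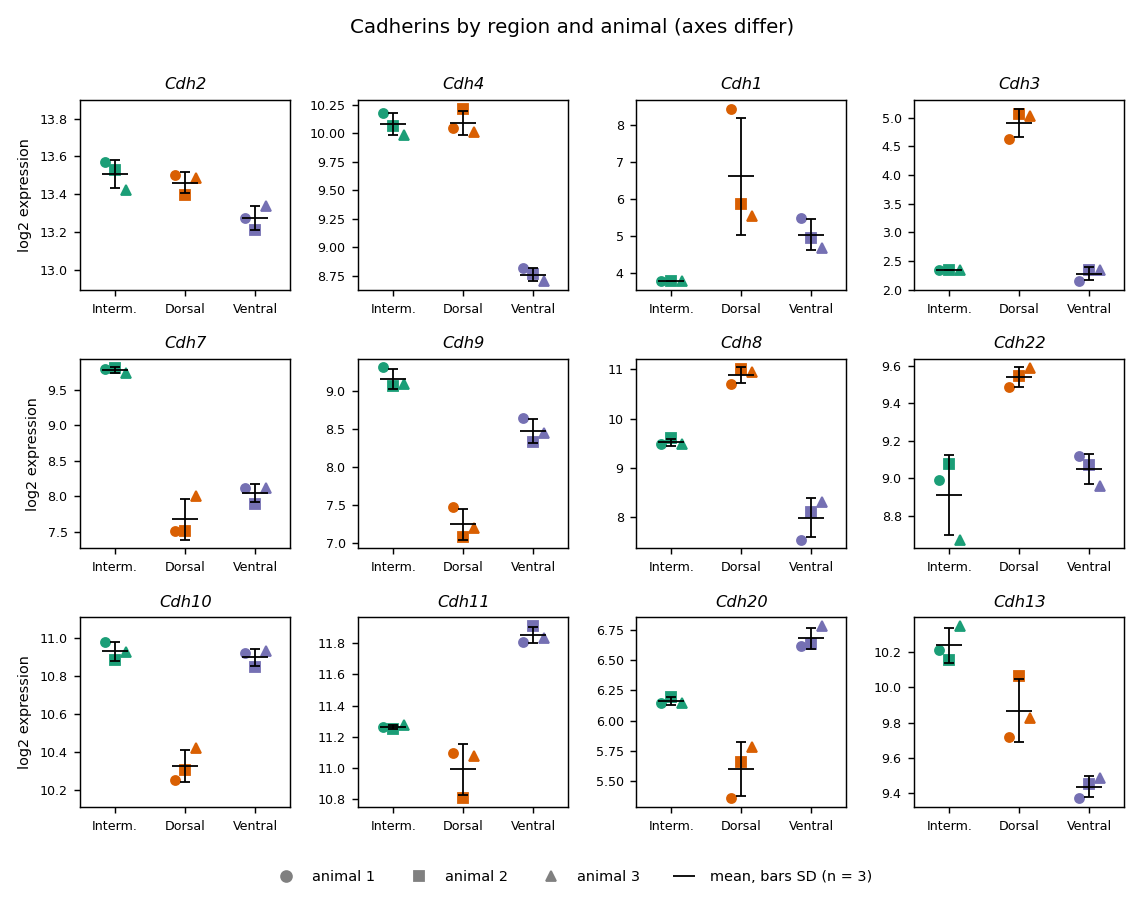
Log2 expression of cadherins on each array by region (intermediate, dorsal, ventral), with marker shape for the animal, bars for the mean and SD (n = 3) and an axis of its own for each gene. Cdh7 and Cdh9 have their highest values in the intermediate piece, Cdh8 in the dorsal piece, and Cdh11 and Cdh20 in the ventral piece.

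The type II cadherins divided by region, as the plot of cadherins by array shows. Of 10 tested, the intermediate piece had 4 higher and 2 lower than the dorsal piece, and 3 higher and 4 lower than the ventral piece, and the dorsal piece had 2 higher and 6 lower than the ventral piece. Of all genes, 30.1%, 48.2% and 52.8% were called in these contrasts in this order. The windows around the transcription starts of 4 of them with differing patterns are printed to give these genes a sequence context. They come from RefSeq on GRCm38.p6, cover 250 bases before to 50 after the start, and are written in the direction of transcription. They lie at chr1:109982650-109982949 on the + strand for Cdh7, chr15:16728665-16728964 on the + strand for Cdh9, chr8:99416422-99416721 on the - strand for Cdh8 and chr1:104768270-104768569 on the + strand for Cdh20. For Cdh7, which has several windows, the most upstream is shown. The gene starts that RefSeq's gene table gives for Cdh7 (109982237) and Cdh9 (16728550) lie upstream of their windows and outside them. Capitals mark matches on either strand to the motifs searched:
Cdh7: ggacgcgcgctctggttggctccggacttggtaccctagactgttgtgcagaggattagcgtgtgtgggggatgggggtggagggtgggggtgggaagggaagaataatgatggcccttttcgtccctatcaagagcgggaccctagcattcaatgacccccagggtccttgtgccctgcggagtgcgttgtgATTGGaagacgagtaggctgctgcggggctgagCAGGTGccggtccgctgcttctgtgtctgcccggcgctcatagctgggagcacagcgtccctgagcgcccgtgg
Cdh9: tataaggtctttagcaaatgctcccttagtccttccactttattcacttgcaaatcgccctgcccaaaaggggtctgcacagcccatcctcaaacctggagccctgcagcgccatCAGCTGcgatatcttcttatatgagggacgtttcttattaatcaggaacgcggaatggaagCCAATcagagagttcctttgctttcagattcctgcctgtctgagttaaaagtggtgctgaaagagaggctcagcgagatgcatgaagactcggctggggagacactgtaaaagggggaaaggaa
Cdh8: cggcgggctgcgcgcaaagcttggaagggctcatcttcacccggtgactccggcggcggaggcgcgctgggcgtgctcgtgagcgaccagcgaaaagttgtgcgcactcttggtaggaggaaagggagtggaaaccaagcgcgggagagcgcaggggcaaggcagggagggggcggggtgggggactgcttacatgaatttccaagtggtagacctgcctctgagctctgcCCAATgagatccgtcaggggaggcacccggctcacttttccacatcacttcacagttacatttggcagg
Cdh20: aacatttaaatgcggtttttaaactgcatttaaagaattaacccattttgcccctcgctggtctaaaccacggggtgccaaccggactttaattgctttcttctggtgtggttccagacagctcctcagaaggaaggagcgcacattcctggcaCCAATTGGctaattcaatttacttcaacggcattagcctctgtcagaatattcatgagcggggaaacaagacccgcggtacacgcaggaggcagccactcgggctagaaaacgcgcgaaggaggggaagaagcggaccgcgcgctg

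The motifs were TAATTA, the core of homeodomain sites, CAGCTG and CACCTG, which are E-boxes of basic helix-loop-helix or zinc finger factors, and CCAAT, the CCAAT box, which was added after the windows had been read. TAATTA was in 0 of these windows and in 5.3% of 32851 windows of the same length. CACCTG was in the Cdh7 window, as its reverse complement, and in 20.2% of all windows, and CAGCTG was in the Cdh9 window and in 16.3% of all. The CCAAT box had a match in each of the 4 windows, with 2 overlapping matches on opposite strands in that of Cdh20, and was in 37.4% of all windows. GC content was 62.7% for Cdh7, 48.7% for Cdh9, 62.3% for Cdh8 and 50.7% for Cdh20, around a median of 52.7% over all windows. A match here describes the letters only, and no binding data were used.

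Cdh7, a type II cadherin of neural subsets, was highest in the intermediate piece. It read 9.79, 9.80 and 9.73 in intermediate pieces, 7.51, 7.51 and 8.01 in dorsal pieces and 8.12, 7.90 and 8.12 in ventral pieces. The intermediate values stood apart, and the dorsal and ventral values overlapped. The intermediate piece exceeded the dorsal 4.28-fold (2.10 ± 0.13, limma, adjusted p = 0.000913) and the ventral 3.32-fold (1.73 ± 0.13, limma, adjusted p = 0.000655). Dorsal minus ventral was -0.37, with a 95% interval of -0.72 to -0.02 before any adjustment, and was not called (limma, adjusted p = 0.076). It was called without animal 3 (adjusted p = 0.0374) and without the dorsal array of animal 3 (0.0129). A second probe set of Cdh7 gave 0.96 and 1.92 for the intermediate contrasts, and 0.96 for dorsal minus ventral (limma, adjusted p = 0.00464), so the order of dorsal and ventral pieces differed between probe sets. A dim one gave -0.06 for intermediate minus dorsal.

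Cdh9, known from mouse hippocampus and retina for matching synaptic partners, had its order in every animal. Its values were 9.31, 9.07 and 9.10 in intermediate pieces, 7.47, 7.07 and 7.19 in dorsal pieces and 8.65, 8.34 and 8.45 in ventral pieces. The 3 regions did not overlap, with the intermediate piece highest and the dorsal lowest. Intermediate pieces exceeded dorsal ones 3.78-fold (1.92 ± 0.03, limma, adjusted p = 0.000143) and ventral ones 1.61-fold (0.68 ± 0.03, limma, adjusted p = 0.000253), and dorsal pieces fell below ventral ones 2.35-fold (-1.23 ± 0.03, limma, adjusted p = 3.97e-05). All of these calls held without each animal and each array.

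Cdh10 and Cdh6 lie with Cdh9 on chromosome 15. Cdh10, a type II cadherin of brain and cord, read 10.98, 10.88 and 10.93 in intermediate pieces, 10.25, 10.31 and 10.42 in dorsal pieces and 10.92, 10.85 and 10.93 in ventral pieces. The dorsal values lay below all others, and intermediate and ventral values overlapped. For intermediate minus dorsal the difference was 0.60 ± 0.05 (limma, adjusted p = 0.00132) and dorsal minus ventral -0.57 ± 0.05 (limma, adjusted p = 0.000487). The next brightest probe set of Cdh10 called neither, at 0.30 and -0.14 (limma, adjusted p = 0.171 and 0.439). Another gave 0.71 and -0.23, of which only the first was called (limma, adjusted p = 0.00492 and 0.079), and called intermediate minus ventral at 0.48 (limma, adjusted p = 0.00861). Cdh6 (K-cadherin, first known from kidney) ranged from 8.47 to 8.53 in intermediate pieces, from 7.96 to 8.47 in dorsal pieces and from 8.46 to 8.56 in ventral pieces. It was not called in any contrast. It came nearest in dorsal minus ventral, at -0.30 (limma, adjusted p = 0.0513), and was called there without animal 1 (adjusted p = 0.0412), and in both dorsal contrasts without the dorsal array of animal 1 (0.0209 and 0.00967). Cdh18, on the same chromosome, was at the floor.

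Cdh8, a type II cadherin found in mouse in sensory neurons and dorsal horn neurons of the cold pathway, was highest in the dorsal piece. Its values were 9.48, 9.61 and 9.49 in intermediate pieces, 10.69, 11.0003 and 10.94 in dorsal pieces and 7.54, 8.11 and 8.31 in ventral pieces. No values overlapped between regions, and they descended from dorsal through intermediate to ventral. The intermediate piece was 2.56-fold below the dorsal (-1.35 ± 0.15, limma, adjusted p = 0.00358) and 2.90-fold above the ventral (1.54 ± 0.15, limma, adjusted p = 0.00116). Dorsal pieces exceeded ventral ones 7.42-fold (2.89 ± 0.15, limma, adjusted p = 0.000143). The call against dorsal pieces was lost without animal 2 (adjusted p = 0.0679). A second probe set of Cdh8 gave -1.39, 1.43 and 2.81 for the same contrasts.

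Cdh22 (PB-cadherin, from pituitary and brain) was also higher dorsally, by less. It read 8.99, 9.08 and 8.67 in intermediate pieces, 9.48, 9.55 and 9.59 in dorsal pieces and 9.12, 9.07 and 8.96 in ventral pieces. Dorsal values lay above all others, and intermediate and ventral values overlapped. Intermediate minus dorsal was -0.63 ± 0.10 (limma, adjusted p = 0.0101) and dorsal minus ventral 0.49 ± 0.10 (limma, adjusted p = 0.0114). Both calls were lost without animal 1 and without animal 2, at adjusted p up to 0.0888 without animal 1 and 0.0831 without animal 2, and the second also without 1 ventral array.

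Cdh11 (OB-cadherin, of mesenchyme and neural tissue) and Cdh20 were highest in the ventral piece. Cdh11 read 11.26, 11.25 and 11.28 in intermediate pieces, 11.10, 10.81 and 11.08 in dorsal pieces and 11.81, 11.91 and 11.83 in ventral pieces. The ventral values lay above all others without overlap, a difference of -0.59 ± 0.08 for intermediate minus ventral (limma, adjusted p = 0.00408) and -0.86 ± 0.08 for dorsal minus ventral (limma, adjusted p = 0.00094). The first was lost without animal 3 (adjusted p = 0.0643). Against dorsal pieces, the intermediate difference was 0.27 and not called (limma, adjusted p = 0.0721), but was called without animal 2 (0.031) and without its dorsal array (0.0408). A second probe set gave smaller differences, -0.35 and -0.42 against ventral pieces.

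Cdh20, a type II cadherin whose chick counterpart marks motor neurons, read 6.14, 6.20 and 6.15 in intermediate pieces, 5.36, 5.66 and 5.79 in dorsal pieces and 6.62, 6.64 and 6.78 in ventral pieces. The regions did not overlap and ascended from dorsal through intermediate to ventral. The intermediate minus dorsal difference was 0.56 ± 0.09 (limma, adjusted p = 0.0104), intermediate minus ventral -0.52 ± 0.09 (limma, adjusted p = 0.00744), and dorsal minus ventral -1.08 ± 0.09, 2.11-fold lower (limma, adjusted p = 0.000542). The first call was lost whichever of the 3 animals was left out (adjusted p up to 0.0988, without animal 2), and the second without animals 2 and 3 (up to 0.0723, without animal 2). Cdh20, Cdh7 and Cdh19 lie on chromosome 1, and their patterns in these pieces were not alike.

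Cdh19, a type II cadherin known from Schwann cells and their precursors, had a wide spread among its dorsal arrays. Its values were 4.35, 4.14 and 4.43 in intermediate pieces, 6.77, 4.43 and 4.86 in dorsal pieces and 7.64, 7.56 and 7.52 in ventral pieces. The dorsal piece of animal 1 stood nearly 2 units above the other dorsal pieces. All ventral values lay above all others. The differences were -3.27 ± 0.52 for intermediate minus ventral, 9.62-fold lower (limma, adjusted p = 0.00579), and -2.22 ± 0.52 for dorsal minus ventral, 4.65-fold lower (limma, adjusted p = 0.0192). Both calls were lost without animal 2 and without animal 3, at adjusted p up to 0.0769 and 0.168 without animal 3, and the second in 4 of the 9 fits without 1 array. For intermediate minus dorsal the difference was -1.05, with a 95% interval of -2.39 to 0.30.

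Markers of Schwann cells and meninges had their lowest summed levels in intermediate pieces, where Cdh1 and Cdh19 also had their lowest means. Cdh11 was instead lowest in dorsal pieces. Cdh19 was called lower in dorsal than in ventral pieces, as few of these markers were. Of 5 Schwann cell markers tested, 3 were lower in the intermediate than in the dorsal piece, 5 lower in the intermediate than in the ventral piece and 1 lower in the dorsal than in the ventral piece, with summed levels of 10.42 to 10.80 on intermediate, 12.46 to 14.28 on dorsal and 13.19 to 13.59 on ventral arrays. Of 10 meningeal and fibroblast markers, 9, 10 and 2 were lower in the same contrasts, with summed levels of 11.65 to 11.97 on intermediate, 13.69 to 14.79 on dorsal and 14.11 to 14.55 on ventral arrays. None of either list was at the floor on all arrays, and their part in the values of these cadherins was not tested.

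Cdh5 (VE-cadherin, of endothelial junctions) read 6.76, 6.82 and 6.70 in intermediate pieces, 7.21, 6.94 and 7.02 in dorsal pieces and 7.60, 7.79 and 7.65 in ventral pieces. No values overlapped between regions. Ventral pieces were higher, with -0.92 ± 0.09 for intermediate minus ventral (limma, adjusted p = 0.00124) and -0.63 ± 0.09 for dorsal minus ventral (limma, adjusted p = 0.00365, lost without animal 3 at 0.0711). Intermediate minus dorsal was -0.30 and not called (limma, adjusted p = 0.0697), but was called without the dorsal array of animal 2 (0.0246). Of 7 endothelial markers tested, 6 were lower in intermediate than in ventral pieces and 6 lower in dorsal than in ventral pieces. Their summed level was 10.84 to 10.87 on intermediate, 10.59 to 10.85 on dorsal and 11.56 to 11.68 on ventral arrays, with none at the floor on all arrays. Their part in the values of Cdh5 was not tested.

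Among the atypical cadherins, Cdh13 (T-cadherin, held to the membrane by a lipid anchor) was the member with a measured level. It read 10.21, 10.16 and 10.35 in intermediate pieces, 9.72, 10.07 and 9.82 in dorsal pieces and 9.37, 9.45 and 9.48 in ventral pieces. The regions did not overlap and descended from intermediate through dorsal to ventral. Against dorsal pieces, the intermediate difference was 0.37 ± 0.09 (limma, adjusted p = 0.0409), intermediate minus ventral 0.81 ± 0.09 (limma, adjusted p = 0.00207) and dorsal minus ventral 0.44 ± 0.09 (limma, adjusted p = 0.0144). The first and last calls were lost without animal 1 and without animal 3 (adjusted p up to 0.287 without animal 3 and 0.0938 without animal 1), and in 7 and 3 of the 9 fits without 1 array. A second probe set gave 0.39, 0.73 and 0.34, all called, and a dimmer one 0.11, 0.42 and 0.32, none called (limma, adjusted p = 0.819, 0.202 and 0.316). Cdh16, the kidney cadherin, read 2.18 to 2.19 on all arrays and was not called, and Cdh17, Cdh23 and Cdh26 were at the floor.

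**Figure D3:**
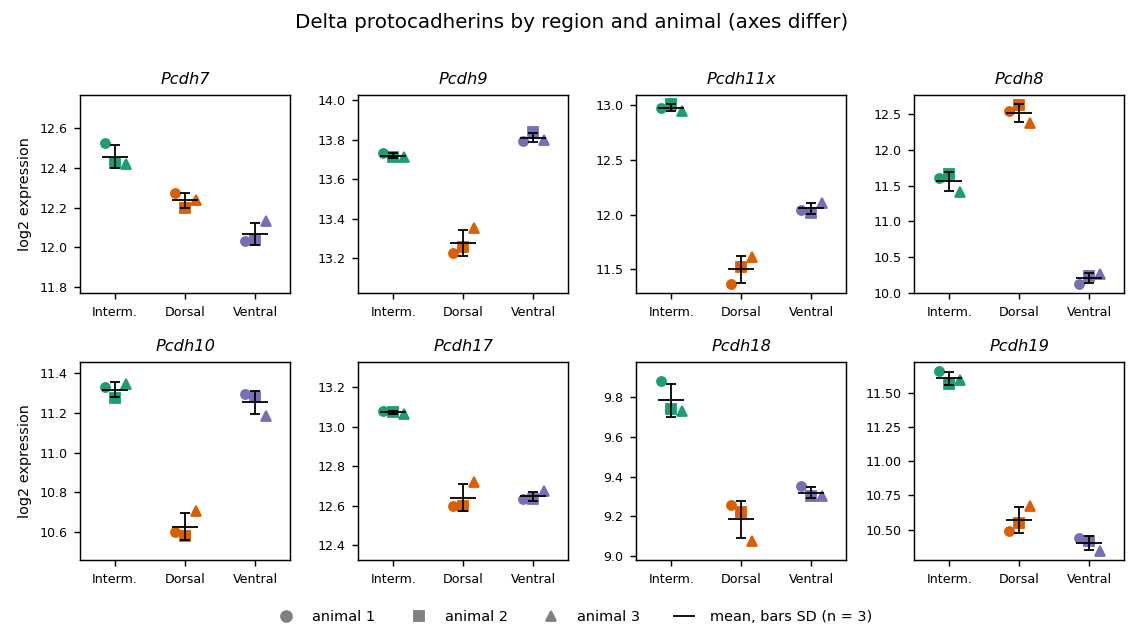
Log2 expression of the 8 measured delta protocadherins on each array by region (intermediate, dorsal, ventral), with marker shape for the animal, bars for the mean and SD (n = 3) and an axis of its own for each gene. Pcdh7, Pcdh11x, Pcdh17, Pcdh18 and Pcdh19 have all intermediate values above all dorsal and ventral values, and Pcdh8 has its highest values in the dorsal piece.

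The delta protocadherins were nearly all highest outside the dorsal piece, with Pcdh8 the exception. Compared with dorsal pieces, intermediate pieces had more of all 3 tested delta-1 members and of 4 of the 5 delta-2 members, and less of Pcdh8. Against ventral pieces, 2 of the 3 and 4 of the 5 were higher in intermediate pieces. The remaining delta-1 member, Pcdh1, was at the floor. Between dorsal and ventral pieces, 1 delta-1 member was higher and 2 were lower in dorsal pieces, and among the delta-2 members 1 was higher and 2 were lower. In the same order of contrasts, 30.1%, 48.2% and 52.8% of all genes were called. The plot of delta protocadherins by array shows that most spreads were small beside the differences.

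Pcdh11x, an X-linked delta-1 protocadherin of neural tissue, read 12.98, 13.01 and 12.95 in intermediate pieces, 11.36, 11.52 and 11.61 in dorsal pieces and 12.05, 12.02 and 12.11 in ventral pieces. No values overlapped between regions, with the intermediate piece highest and the dorsal lowest. Intermediate pieces exceeded dorsal ones 2.79-fold (1.48 ± 0.06, limma, adjusted p = 0.000379) and ventral ones 1.90-fold (0.92 ± 0.06, limma, adjusted p = 0.000412). Dorsal minus ventral was -0.56 ± 0.06 (limma, adjusted p = 0.0012). All of these calls held without each animal and each array, and a second probe set gave 1.62, 0.82 and -0.80.

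Pcdh9, a delta-1 protocadherin of neurons and glia, read 13.73, 13.71 and 13.71 in intermediate pieces, 13.22, 13.26 and 13.35 in dorsal pieces and 13.80, 13.84 and 13.80 in ventral pieces. The dorsal values were lowest. The intermediate minus dorsal difference was 0.44 ± 0.04 (limma, adjusted p = 0.00159) and dorsal minus ventral -0.53 ± 0.04 (limma, adjusted p = 0.000301). Intermediate minus ventral was -0.09 and not called (limma, adjusted p = 0.0969), but was called without the dorsal array of animal 3 (0.0229). The next brightest probe set of Pcdh9 called all 3 contrasts, at 0.32 for intermediate minus dorsal, -0.29 for intermediate minus ventral and -0.61 for dorsal minus ventral (limma, adjusted p = 0.0249, 0.0209 and 0.00145).

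Pcdh7, a delta-1 protocadherin whose frog counterpart acts in axon growth, read 12.53, 12.42 and 12.42 in intermediate pieces, 12.27, 12.20 and 12.24 in dorsal pieces and 12.03, 12.04 and 12.13 in ventral pieces. The regions descended from intermediate through dorsal to ventral without overlap. The differences were 0.22 ± 0.04 for intermediate minus dorsal, 0.39 ± 0.04 for intermediate minus ventral and 0.17 ± 0.04 for dorsal minus ventral (limma, adjusted p = 0.0165, 0.00148 and 0.0211). The first was lost whichever of the 3 animals was left out and the last without animals 1 and 2 (adjusted p up to 0.148 and 0.155, both without animal 2), and in 5 and 4 of the 9 fits without 1 array. A dimmer probe set, with means of 5.11 for intermediate pieces, 4.44 for dorsal pieces and 6.50 for ventral pieces, gave 0.67, -1.39 and -2.06 (limma, adjusted p = 0.02, 0.00111 and 0.000262), so the direction against ventral pieces turned with the probe set.

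Pcdh8 (arcadlin, which is induced by activity and promotes the internalisation of N-cadherin) read 11.60, 11.66 and 11.42 in intermediate pieces, 12.55, 12.63 and 12.38 in dorsal pieces and 10.12, 10.23 and 10.27 in ventral pieces. The regions did not overlap and descended from dorsal to ventral. The intermediate piece was 1.94-fold below the dorsal (-0.96 ± 0.08, limma, adjusted p = 0.00159) and 2.56-fold above the ventral (1.35 ± 0.08, limma, adjusted p = 0.000331). Dorsal pieces exceeded ventral ones 4.96-fold (2.31 ± 0.08, limma, adjusted p = 5.65e-05). These calls held without each animal and each array, and a second probe set gave -0.86, 1.32 and 2.17.

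Pcdh19, an X-linked delta-2 protocadherin whose human gene is mutated in an epilepsy that affects mainly females, read 11.66, 11.56 and 11.59 in intermediate pieces, 10.49, 10.55 and 10.67 in dorsal pieces and 10.44, 10.42 and 10.35 in ventral pieces. The intermediate values stood apart from all others. They exceeded dorsal values 2.05-fold (1.03 ± 0.06, limma, adjusted p = 0.000798) and ventral values 2.30-fold (1.20 ± 0.06, limma, adjusted p = 0.000276). Dorsal minus ventral was 0.17 and not called (limma, adjusted p = 0.0801), although all dorsal values lay above all ventral ones, and it was called without the dorsal array of animal 1 (0.0289). It was also called in the fit without the animal block (adjusted p = 0.0336).

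Pcdh17, which acts at synapses of mouse basal ganglia circuits, read 13.08, 13.07 and 13.07 in intermediate pieces, 12.60, 12.60 and 12.72 in dorsal pieces and 12.64, 12.63 and 12.67 in ventral pieces. The intermediate values stood apart, and dorsal and ventral values overlapped. For intermediate minus dorsal the difference was 0.43 ± 0.03 (limma, adjusted p = 0.00112) and intermediate minus ventral 0.43 ± 0.03 (limma, adjusted p = 0.000527). Dorsal minus ventral was -0.01, with a 95% interval of -0.09 to 0.07.

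Pcdh18, which binds the adaptor Dab1, read 9.88, 9.74 and 9.73 in intermediate pieces, 9.25, 9.22 and 9.08 in dorsal pieces and 9.35, 9.30 and 9.30 in ventral pieces. No values overlapped between regions, with the intermediate piece highest. Intermediate minus dorsal was 0.60 ± 0.04 (limma, adjusted p = 0.000857) and intermediate minus ventral 0.47 ± 0.04 (limma, adjusted p = 0.000719). Dorsal minus ventral was -0.14 ± 0.04 (limma, adjusted p = 0.033), a call that was lost whichever of the 3 animals was left out (adjusted p up to 0.179, without animal 3), in 6 of the 9 fits without 1 array, and without the animal block (0.0887). A dimmer probe set gave 0.38, 0.15 and -0.23, of which only the first was called (limma, adjusted p = 0.0295, 0.222 and 0.0783).

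Pcdh10 (OL-protocadherin, which acts in axon growth) read 11.33, 11.27 and 11.35 in intermediate pieces, 10.60, 10.58 and 10.70 in dorsal pieces and 11.29, 11.28 and 11.19 in ventral pieces. The dorsal values were lowest, and intermediate and ventral values overlapped. Against dorsal pieces, the intermediate difference was 0.69 ± 0.05, 1.61-fold higher (limma, adjusted p = 0.00119), and dorsal minus ventral -0.63 ± 0.05, 1.54-fold lower (limma, adjusted p = 0.000479). Intermediate minus ventral was 0.06 and not called (limma, adjusted p = 0.356). Other probe sets of Pcdh10 disagreed on that contrast, with 0.31 and 0.53 on 2 of them and -0.40 on another, all called.

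Of the other non-clustered protocadherins, Pcdh20 read 6.53, 6.43 and 6.49 in intermediate pieces, 6.10, 6.22 and 6.22 in dorsal pieces and 6.11, 6.03 and 6.19 in ventral pieces. The intermediate values lay above all others, by 0.30 against dorsal pieces (limma, adjusted p = 0.0143) and 0.38 against ventral ones (limma, adjusted p = 0.00385). The first call was lost whichever of the 3 animals was left out and in 2 of the 9 fits without 1 array (adjusted p up to 0.131, without animal 3), and the second without animal 3 (0.0553). Its second probe set gave 0.38 and 0.44 and called neither (limma, adjusted p = 0.13 and 0.0663).

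Pcdh15, which forms the tip links of hair cells together with Cdh23, read 9.20 to 9.52 on all arrays. It was called higher by 0.18 in intermediate than in ventral pieces (limma, adjusted p = 0.0422) and by 0.20 in dorsal than in ventral pieces (limma, adjusted p = 0.0314), without overlap, while its partner Cdh23 was at the floor. Both calls were lost whichever of the 3 animals was left out and in 7 of the 9 fits without 1 array (adjusted p up to 0.157 without animal 1 and 0.147 without animal 3). Its second probe set, with means of 8.31 for intermediate pieces, 8.49 for dorsal pieces and 7.70 for ventral pieces, called both at 0.61 and 0.79 (limma, adjusted p = 0.0051 and 0.00178). Pcdh12, an endothelial protocadherin, read 3.98 on each intermediate array, 3.98, 3.21 and 3.98 in dorsal pieces and 4.60, 4.67 and 4.26 in ventral pieces. It was called lower in dorsal than in ventral pieces, by -0.79 ± 0.24 (limma, adjusted p = 0.0458), although the F test over regions did not call it, and the call was lost whichever of the 3 animals was left out and in 6 of the 9 fits without 1 array (up to 0.187, without animal 1). Intermediate minus ventral was -0.53 and not called (limma, adjusted p = 0.141), but was called without the dorsal array of animal 2 (0.0201). Other probe sets of Pcdh12 were at the floor on all arrays. The endothelial markers given with Cdh5 moved the same way, and their part was not tested for Pcdh12 either.

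**Figure D4:**
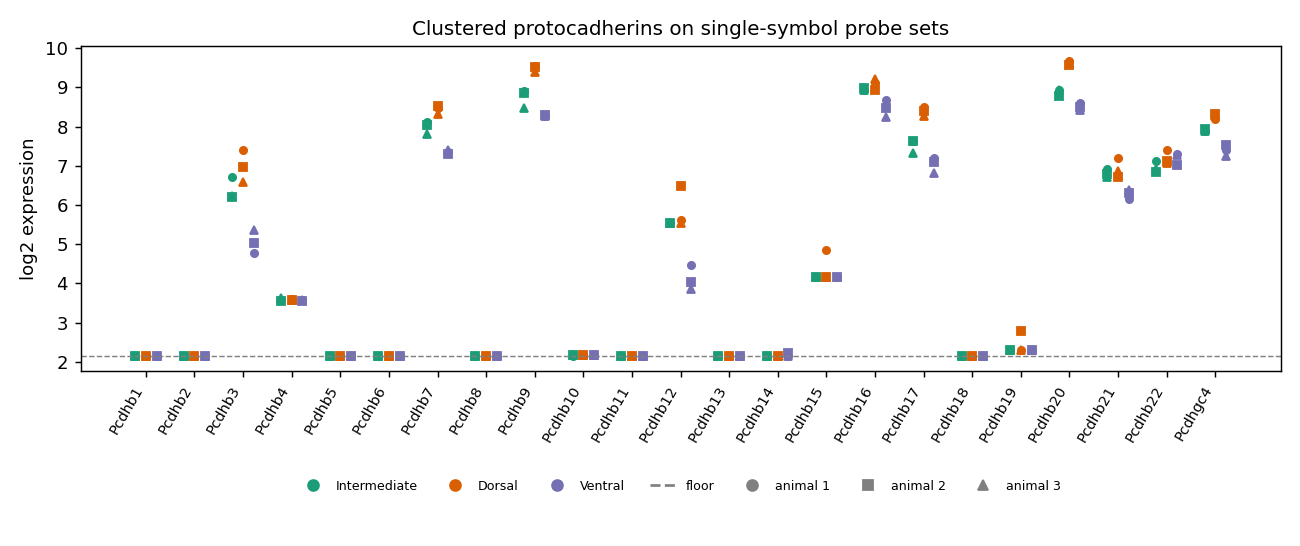
Log2 expression (y axis) of the 22 beta members and Pcdhgc4 on each array, with colour for the region (intermediate, dorsal, ventral from left to right), marker shape for the animal and a dashed line at the floor. Ventral values lie below dorsal values for Pcdhb17, Pcdhb20 and Pcdhgc4, with the intermediate piece between.

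Among the clustered protocadherins on chromosome 18, 8 beta members and Pcdhgc4 were lower in ventral than in dorsal pieces, as the plot of them by array shows. Of 22 beta members, 8 were at the floor on all arrays and 15 were tested (Pcdhb11 among them at the floor). The intermediate piece had 0 of them higher and 4 lower than the dorsal piece, and 8 higher and 1 lower than the ventral piece. The dorsal piece had 8 higher and 0 lower than the ventral piece. Shares of all genes called in these contrasts were 30.1%, 48.2% and 52.8%. Median differences over the tested beta members were -0.23, 0.38 and 0.62 in this order. Beta genes resemble each other in sequence, so a probe set may read more than 1 of them, and they are not independent of each other. The neuron markers given above were also lower in ventral pieces, and their part in these differences was not tested.

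Pcdhb17 read 7.64, 7.64 and 7.34 in intermediate pieces, 8.50, 8.39 and 8.28 in dorsal pieces and 7.20, 7.10 and 6.80 in ventral pieces. In every animal the values descended from dorsal through intermediate to ventral, and the regions did not overlap. The intermediate minus dorsal difference was -0.85 ± 0.05 (limma, adjusted p = 0.000698), intermediate minus ventral 0.50 (limma, adjusted p = 0.00115), and dorsal minus ventral 1.36 ± 0.05, 2.56-fold higher (limma, adjusted p = 6.4e-05). Pcdhb20 had the same order, with 8.94, 8.79 and 8.94 in intermediate pieces, 9.68, 9.56 and 9.61 in dorsal pieces and 8.60, 8.49 and 8.42 in ventral pieces. Its differences were -0.72, 0.38 and 1.11 (limma, adjusted p = 0.000923, 0.0024 and 9.43e-05). For these 2 genes every call held without each animal and each array.

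Pcdhb9 read 8.90, 8.86 and 8.46 in intermediate pieces, 9.55, 9.51 and 9.38 in dorsal pieces and 8.27, 8.30 and 8.27 in ventral pieces, and Pcdhb7 read 8.11, 8.04 and 7.80, 8.48, 8.53 and 8.31, and 7.36, 7.30 and 7.39 in the same regions. Neither gene's regions overlapped. For intermediate minus dorsal the difference was -0.74 for Pcdhb9 and -0.45 for Pcdhb7, intermediate minus ventral 0.46 and 0.63, and dorsal minus ventral 1.20 and 1.09 (limma, adjusted p = 0.00499, 0.0147, 0.0115, 0.00275, 0.000417 and 0.000398). Calls between dorsal and ventral pieces held for both. Those for intermediate minus dorsal were lost without animals 1 and 2 (adjusted p up to 0.0644 for Pcdhb9, without animal 2, and 0.108 for Pcdhb7, without animal 1, which also lost it in 5 of the 9 fits without 1 array). Those for intermediate minus ventral were lost without animals 1 and 2 for Pcdhb9 (up to 0.127, without animal 2) and in 1 fit without 1 array, and without animal 1 for Pcdhb7 (0.055).

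Pcdhb3 read 6.71, 6.20 and 6.22 in intermediate pieces, 7.39, 6.96 and 6.60 in dorsal pieces and 4.79, 5.04 and 5.37 in ventral pieces. Ventral values lay below all others. Dorsal pieces exceeded ventral ones 3.79-fold (1.92 ± 0.28, limma, adjusted p = 0.00372, lost without animal 2 at 0.066), and intermediate minus ventral was 1.32 (limma, adjusted p = 0.0152, lost without animals 1 and 2, up to 0.123 without animal 2, and in 3 of the 9 fits without 1 array). Pcdhb12 read 5.53 on each intermediate array, 5.61, 6.49 and 5.53 in dorsal pieces and 4.47, 4.03 and 3.86 in ventral pieces. Its ventral values were lowest, with 1.41 for intermediate minus ventral (limma, adjusted p = 0.0119) and 1.76 for dorsal minus ventral (limma, adjusted p = 0.00502). The first was lost without animals 1 and 3 and in 3 of the 9 fits without 1 array (up to 0.132, without animal 3) and the second without animal 3 (0.0675).

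Pcdhb16 and Pcdhb21 were lower ventrally by smaller amounts. For Pcdhb16 the values were 8.93, 8.99 and 8.92 in intermediate pieces, 9.11, 8.93 and 9.21 in dorsal pieces and 8.67, 8.49 and 8.23 in ventral pieces, with differences of 0.48 for intermediate minus ventral (limma, adjusted p = 0.0319) and 0.62 for dorsal minus ventral (limma, adjusted p = 0.013). Pcdhb21 ranged from 6.72 to 6.91 in intermediate pieces, from 6.72 to 7.20 in dorsal pieces and from 6.15 to 6.37 in ventral pieces, with 0.53 (limma, adjusted p = 0.0302) and 0.65 (limma, adjusted p = 0.0142). The Pcdhb16 calls were lost whichever of the 3 animals was left out (up to 0.157 and 0.0738, without animal 2). The Pcdhb21 calls were lost without animals 2 and 3 (up to 0.131 and 0.0928, without animal 3). For both genes the intermediate minus ventral call was lost in 6 of the 9 fits without 1 array. A dim probe set of Pcdhb16 gave 0.31 and 0.10 and called neither (limma, adjusted p = 0.292 and 0.749), and another was at the floor on all arrays. A second probe set of Pcdhb21 called both, at 0.38 and 0.65 (limma, adjusted p = 0.0298 and 0.00427).

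Pcdhb22 ran against this order. Its values were 7.11, 6.85 and 6.93 in intermediate pieces, 7.39, 7.11 and 7.07 in dorsal pieces and 7.31, 7.02 and 7.28 in ventral pieces. The intermediate and ventral values overlapped, although within each animal the ventral value was higher. Intermediate minus ventral was -0.24 (limma, adjusted p = 0.035), which was lost without animals 1 and 2 (up to 0.153, without animal 1), in 7 of the 9 fits without 1 array and without the animal block (0.151). Intermediate minus dorsal was -0.23 and not called (limma, adjusted p = 0.0606), but was called without animal 3 (0.0218) and without its dorsal or its ventral array (0.03 and 0.021), and dorsal minus ventral was -0.01 (limma, adjusted p = 0.954). Without animal 3 the dorsal minus ventral difference was called at 0.0866 (adjusted p = 0.0289).

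Pcdhb4, Pcdhb10, Pcdhb14, Pcdhb15 and Pcdhb19 were not called in any contrast. Pcdhb4 read 3.56 to 3.64 on all arrays. Pcdhb15 read 4.15 to 4.17 except for 4.85 in the dorsal piece of animal 1, and Pcdhb19 read 2.29 except for 2.79 in the dorsal piece of animal 2. Pcdhb10 and Pcdhb14 stayed between 2.15 and 2.24, at or near the floor, where the arrays give little more than a bound.

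Pcdhgc4, the gamma isoform that interneurons need to survive in mouse, was the gamma member with a probe set of its own. It read 7.90, 7.94 and 7.90 in intermediate pieces, 8.19, 8.31 and 8.27 in dorsal pieces and 7.39, 7.54 and 7.25 in ventral pieces. The regions did not overlap and descended from dorsal to ventral. Against dorsal pieces, the intermediate difference was -0.34 ± 0.06 (limma, adjusted p = 0.0144), intermediate minus ventral 0.52 (limma, adjusted p = 0.00218) and dorsal minus ventral 0.86 ± 0.06, 1.82-fold higher (limma, adjusted p = 0.000349). The first call was lost without animals 1 and 2 (adjusted p up to 0.117, without animal 1) and in 3 of the 9 fits without 1 array.

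Partners of these proteins were examined as lists. For comparison with each list, 30.1% of all genes were called for intermediate minus dorsal. The shares were 48.2% for intermediate minus ventral and 52.8% for dorsal minus ventral. Of 7 catenins, which tie classical cadherins to actin, 0 were higher and 1 was lower in the intermediate piece than in the dorsal, and 2 were higher and 2 lower in each contrast against ventral pieces. Ctnna2, the neuronal alpha-catenin, was higher by 0.63 ± 0.06 in dorsal than in ventral pieces (limma, adjusted p = 0.000824), and Ctnnd2, the neuronal delta-catenin, by 0.62 ± 0.07 in intermediate than in ventral pieces (limma, adjusted p = 0.00166). Ctnna1, the widely expressed alpha-catenin, was lower by -0.82 ± 0.11 in intermediate than in ventral pieces (limma, adjusted p = 0.00382), and Ctnnd1 (p120-catenin) by -0.56 ± 0.15 (limma, adjusted p = 0.0311). Ctnna3, the alpha-catenin best known from heart and testis, was lower by -0.77 ± 0.14 in dorsal than in ventral pieces (limma, adjusted p = 0.00745).

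Of 14 other members of the cadherin superfamily tested, the intermediate piece had 4 higher and 3 lower than the dorsal piece and 8 higher and 1 lower than the ventral piece, and the dorsal piece had 10 higher and 3 lower than the ventral piece. Fat4, a giant cadherin of planar polarity, differed by -1.21, 1.98 and 3.19 for intermediate minus dorsal, intermediate minus ventral and dorsal minus ventral (limma, adjusted p = 0.00187, 0.000287 and 5.4e-05). Celsr3, a seven-pass cadherin of axon guidance, gave -0.52, 1.52 and 2.04 (limma, adjusted p = 0.00493, 0.000197 and 5.01e-05). Cdhr1 was higher by 2.23 in intermediate and 2.57 in dorsal than in ventral pieces (limma, adjusted p = 0.000455 and 0.000197). Ret, a receptor kinase with cadherin-like domains, was lower by -1.04 in intermediate and -1.14 in dorsal than in ventral pieces (limma, adjusted p = 0.00139 and 0.000809), and Dsc2, a desmosomal cadherin, was lower by -0.83 in the intermediate than in the dorsal piece (limma, adjusted p = 0.0381).

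Of 9 tested signalling partners of protocadherins, 1 was higher and 1 lower, 2 higher and 2 lower, and 3 higher and 3 lower in the contrasts in this order. Dab1, the adaptor that binds Pcdh18, was higher by 0.80 ± 0.06 in intermediate than in dorsal pieces (limma, adjusted p = 0.00127) and lower by -0.70 ± 0.06 in dorsal than in ventral pieces (limma, adjusted p = 0.000584), and Ryk was lower by -0.60 ± 0.09 in intermediate than in ventral pieces (limma, adjusted p = 0.00532). Of 5 genes of cadherin cleavage tested, 0 were higher and 2 lower, 0 higher and 3 lower, and 1 higher and 2 lower. The protease Adam10 and the gamma-secretase subunit Ncstn gave -0.50 ± 0.10 and -0.62 ± 0.11 for intermediate minus dorsal (limma, adjusted p = 0.019 and 0.0157). Ncstn was higher by 0.76 ± 0.11 for dorsal minus ventral (limma, adjusted p = 0.00383), where Aph1a, another subunit, was at -0.69 ± 0.08 (limma, adjusted p = 0.00171). Of 5 nectins and afadin, 0 were higher and 2 lower, 1 higher and 1 lower, and 2 higher and 0 lower, with Nectin2 at 0.83 ± 0.13 for dorsal minus ventral and Nectin3 at -0.54 ± 0.08 for intermediate minus dorsal (limma, adjusted p = 0.00515 and 0.00862). Of 11 regulators of clustered protocadherin choice, 0 were higher and 4 lower, 0 higher and 4 lower, and 2 higher and 1 lower. The cohesin release factor Wapl, at -0.58 ± 0.07 for intermediate minus ventral (limma, adjusted p = 0.00237), was the only one called with a difference of at least 0.5, and Ctcf, which loops the cluster's promoters to their enhancers, was not called.

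**Figure D5:**
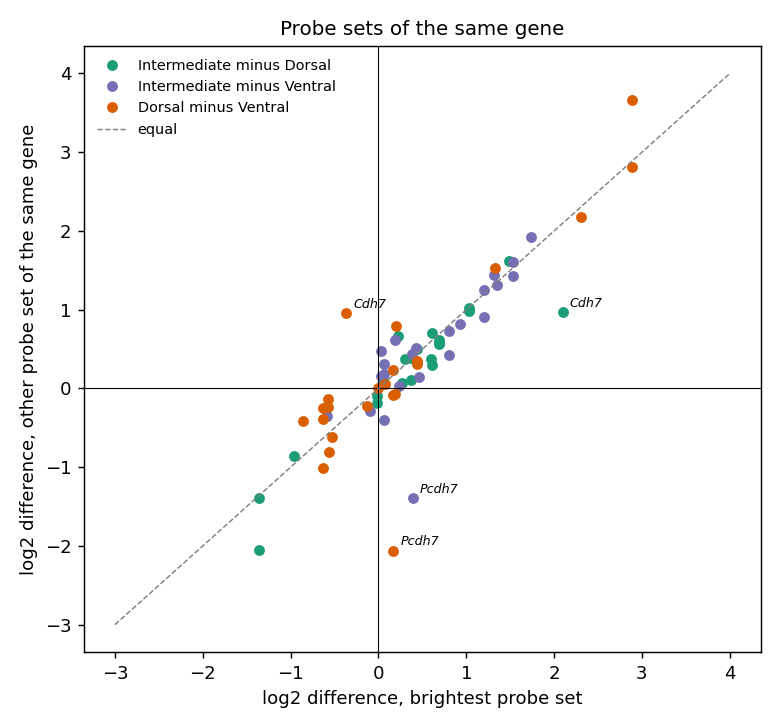
Log2 difference on another probe set of the same gene (y axis) against that on its brightest probe set (x axis), for 23 other probe sets of 17 members with a mean of at least 5, in the contrasts between regions. Of 69 points 62 had the same sign on both axes, and the 4 labelled points, with a gap of over 0.9, belong to Cdh7 and Pcdh7, and the dashed line marks equal differences.

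Where a member had several probe sets, they could be set against each other, as the plot of differences on brightest and other probe sets shows. For the called differences, 17 of 28 other probe sets were called in the same direction for intermediate minus dorsal, 13 of 27 for intermediate minus ventral and 14 of 34 for dorsal minus ventral. None was called in the opposite direction in the first contrast, 1 in the second (Pcdh7) and 2 in the third (Cdh2 and Pcdh7). Of the other probe sets, 4, 5 and 9 were at the floor on all arrays.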

How the data were processed

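RNA of 9 pieces of spinal cord (3 regions of 3 mice) was measured, from 500 ng of total RNA each, by Affymetrix 3' in vitro transcription, per the labels' protocols. The authors deposited a single value per probe set and array. The deposited values were taken to be log2 expression from their range, and the sources used here do not give how the authors summarised and normalised them. Per array, 36.0% to 36.3% of probe sets were within 0.01 of the floor, which gives only a bound, and the small number of arrays limits the precision.

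Of 45037 probe sets, 34945 had a single symbol in the platform annotation, 932 had several and 9160 had none. All 56 members were found under the same symbol in RefSeq's gene table. The 6 probe sets that list several alpha protocadherins were left out of the tests. Each gene was represented by its probe set of highest mean, kept at or above percentile 30 of the means of all probe sets (2.15), which removed 4234 of 18193 genes. Of the 40 members above the floor on all arrays, 7 had 3 identical values in some region, which makes the spread look smaller.

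A model with region and, as a fixed block, animal was fitted to 13959 genes with limma 3.58.1 in R 4.3.3 (data.table version 1.17.8, and figures with Python 3.11.15 and matplotlib 3.10.9), with 4 residual and 0.749 prior degrees of freedom. Tests are two-sided, values after ± are standard errors, n = 3 per region, and intervals are at 95% and unadjusted. The script was tested on simulated data. The titles name the animal of each piece. Deviations of same-animal arrays correlated at -0.066 to 0.246 (mean 0.081, 3 of 9 pairs above 0.1) and those of different animals at -0.18 to 0.161 (mean -0.041, 18 pairs).

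The members and lists were chosen with earlier results of these data known. Array values are given for up to 8 called members with the largest difference in each direction of each contrast, for 12 members chosen by name and for others where they complete a role. Partner genes are named where called with a difference of at least 0.5, up to 3 a list in each direction. A list's summed level is the log2 of the sum of its members' linear values. Alternatives were leaving out each animal or array, other filters, normalizations, probe sets, priors and block settings, only genes with 9 distinct values, and only the arrays of the regions compared.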

Additional observations from a re-analysis of the deposited data

Results flagged for a closer look

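Some signal lay outside the members tested. Of 6 probe sets that list several alpha protocadherins (14 or 9 symbols each), 3 with 14 symbols were well above the floor, while the other 3, with 9 symbols each, were at or near it on all arrays. The first had means of 12.85 for intermediate pieces, 13.28 for dorsal pieces and 11.73 for ventral pieces. The second had means of 10.40 for intermediate pieces, 10.80 for dorsal pieces and 9.07 for ventral pieces. The third had means of 9.53 for intermediate pieces, 10.005 for dorsal pieces and 8.32 for ventral pieces. On each of these 3 probe sets every dorsal value lay above every intermediate value, and every intermediate value above every ventral value, differences that were not tested and that cannot be given to 1 alpha gene.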

How the results depend on the processing

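With 3 arrays a region, many calls were lost when 1 animal was left out, those of the large Cdh1 and Cdh19 differences among them. Such fits have fewer arrays and less power for every gene, so a lost call need not rest on that animal. Leaving out an animal gave 15 to 20 members called for intermediate minus dorsal, 19 to 21 for intermediate minus ventral, 19 to 23 for dorsal minus ventral and 24 to 28 for any region. Leaving out 1 array gave 18 to 22, 21 to 28, 21 to 28 and 27 to 32. No share of all genes is given beside the counts of each alternative, so they show nothing particular to these genes. Under every other alternative these counts stayed within 1.5 times those reported, although the calls behind them changed. Fitting only the arrays of the 2 regions compared ended 16 calls of single members and added 2. Leaving out the filter on dim probe sets ended 10 and added 0. A stricter filter kept 108 of 129 member differences, ended 0 calls among those and added 7. The dim members that it removed, Cdh3 among them, had no result there, so their calls were not scored. Centring arrays on their medians ended the dorsal minus ventral calls of Cdh2 and Pcdh7 and added 4 calls, both dorsal contrasts of Cdh6 among them, and quantile normalization ended 2 and added 1. Leaving out the replicate block, with the animal not in the model, gave 25, 27 and 29 for the 3 contrasts. Without the block, the calls of Pcdh18 for dorsal minus ventral and of Pcdhb22 for intermediate minus ventral were lost, and Cdh5 and Cdh11 for intermediate minus dorsal were called, as was Pcdh19 for dorsal minus ventral. The dorsal minus ventral difference of Pcdhb22, not called in the full fit, ran from -0.0643 to 0.0866 with an animal left out, and was called in the opposite direction without animal 3 (adjusted p = 0.0289). Taking the most variable probe set reversed Pcdh7 to -1.39 and -2.06 against ventral pieces and Pcdh10 to -0.40 for intermediate minus ventral. Taking other probe sets in turn also reversed Cdh2 to -0.0761 and Cdh7 to 0.96 for dorsal minus ventral, both called. Dim probe sets gave differences of the other sign that were not called: -0.0571 for Cdh7, intermediate minus dorsal, 0.0094 for Pcdh10, dorsal minus ventral, and -0.0052 and -0.0105 against ventral pieces for Pcdh15, on a probe set at the floor on 8 of 9 arrays. The cause was not tested. Centring arrays on their medians moved the median of all genes by 0.07, 0.02 and -0.05.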
